A study of Mus musculus with 10 samples.

Results

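Annexins are a family of proteins that bind acidic phospholipids in the presence of calcium, and the results below describe the messenger RNA of 10 annexin genes in mouse liver organoids. The members were taken as a list of symbols (Anxa1, Anxa2, Anxa3, Anxa4, Anxa5, Anxa6, Anxa7, Anxa8, Anxa11 and Anxa13), and all 10 were found among the 49585 genes of the deposited count tables. The family was picked because Anxa8 and Anxa13 differed between the organoid groups. Differences of members between those groups are therefore given as a description, with standard errors and without a test. Each standard error is the absolute log2 fold change over the square root of the fit's F statistic. It is thus no measure of spread apart from that fit. Anxa9 and Anxa10 were not on the list, and their values are given once for completeness.

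The series holds 10 samples in 5 groups of 2, from a mouse model of hepatocellular carcinoma named for the triple knockout of the Rb family. The groups used here are organoids (cells grown as hollow or solid structures in culture) that the labels call Ck19-derived and Sox9-derived, with n = 2 libraries each, named the Ck19 pair and the Sox9 pair below. Ck19 is the product of Krt19, a bile duct keratin, and the transcription factor Sox9 marks bile ducts and liver progenitors. The shared protocol sorts cells that carry YFP, a sign that Cre had recombined floxed alleles. The sample labels give the treatment as none and state neither the genotype, the driver of Cre, the culture time, the age of the animals nor whether replicates are separate animals or cultures, so each spread below is that between libraries and may be technical.

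Columns were tied to samples by name. The Sox9 label matches a plain pair of columns and also a pair whose names carry a TKO tag; the plain pair was used for the comparison, and the tagged pair is shown separately. A wrong match of these names would change what the Sox9 values stand for. Between 31883180 and 36606008 fragments were assigned to genes in each organoid library. By markers the plain columns were duct-like: 8 biliary genes summed to between 14356 and 31493 CPM (counts per 1000000 assigned fragments), against 260 to 627 CPM for 8 hepatocyte genes. Much of the biliary sum was Spp1, or osteopontin, at 7434 and 7744 CPM in the Ck19 and 22830 and 18279 CPM in the Sox9 libraries. In the tagged pair the same sums were 507 and 1159 CPM for the biliary and 50861 and 39541 CPM for the hepatocyte genes. Markers of mesenchymal cells (1.2 to 2.8 CPM), endothelium (0.4 to 0.8 CPM) and lymphocytes (0.3 to 0.5 CPM) were near 0 in the organoid libraries, while the myeloid sum (1072 to 1354 CPM) was mostly Cd14. Xist, an RNA of the inactive X chromosome, had 1923 and 1869 fragments in the Ck19 and 1 in each Sox9 library, and the Y-linked gene Eif2s3y had 3 and 3 against 3383 and 2615. Origin of the culture, sex and animal thus cannot be told apart in any difference below.

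An annexin consists of a variable N-terminal tail and a core of repeated segments that hold calcium against the membrane surface. The tail decides the partners: several annexins pair with small calcium-binding proteins of the S100 family, and the best known complex joins Anxa2 to S100a10. Annexins take part in exocytosis, endocytosis, the linkage of membrane to actin and the sealing of torn membrane, and outside the cell some of them act on blood clotting and on leukocytes. In the liver, bile duct epithelium is known to carry more of several annexins than hepatocytes do.

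Genes of 3 members lie on chromosome 14, namely Anxa7 (20455261 to 20480133, minus strand), Anxa11 (25842156 to 25886804, plus strand) and Anxa8 (34085981 to 34100571, plus strand; all positions on GRCm38). The 250 bases before a transcription start of each, from RefSeq on GRCm38.p6, are shown because these genes share a chromosome while only Anxa8 among them differed several-fold. Each is written 5′ to 3′ on the gene's own strand, and capitals mark the GC box letters GGGCGG or their reverse complement.
Anxa8, chr14:34085729-34085978, plus strand: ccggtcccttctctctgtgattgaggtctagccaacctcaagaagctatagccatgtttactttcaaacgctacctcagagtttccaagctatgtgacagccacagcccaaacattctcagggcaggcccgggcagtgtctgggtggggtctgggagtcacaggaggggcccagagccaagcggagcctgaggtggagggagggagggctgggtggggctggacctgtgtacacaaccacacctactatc
Anxa7, chr14:20480134-20480383, minus strand: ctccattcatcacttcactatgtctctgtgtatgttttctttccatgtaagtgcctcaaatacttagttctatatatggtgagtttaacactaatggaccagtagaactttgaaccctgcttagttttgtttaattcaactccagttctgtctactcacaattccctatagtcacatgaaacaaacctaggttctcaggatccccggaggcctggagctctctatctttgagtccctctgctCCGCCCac
Anxa11, chr14:25841905-25842154, plus strand: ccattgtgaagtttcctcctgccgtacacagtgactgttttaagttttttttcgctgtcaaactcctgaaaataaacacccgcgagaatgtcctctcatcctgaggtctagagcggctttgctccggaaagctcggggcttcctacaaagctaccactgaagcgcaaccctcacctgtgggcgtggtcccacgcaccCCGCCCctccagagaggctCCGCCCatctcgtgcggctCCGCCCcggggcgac

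The Anxa8 window held 4 CpG pairs and no GGGCGG, the Anxa7 window 2 CpG pairs and 1 GGGCGG, and the Anxa11 window 17 CpG pairs and 3 GGGCGG. Anxa7 has a second start in the table, and the window before it (chr14:20479942-20480191, overlapping the one shown) held 16 CpG pairs and 4 GGGCGG. The Anxa7 window shown is the one that begins where the counted gene ends, and its low CpG count thus does not hold for the other start. Read on both strands, GGGCGG stood in 32.7% of the 32851 windows of this length in the table. No other motif searched on both strands was found in these 4 windows, namely TATAAA (12.4% of all windows), CCAAT (33.9%), TGANTCA (6.75%) and GGAATG (12.6%). The motifs do not overlap one another in these windows. A letter match describes the sequence and is no measure of binding. The table had entries for 7 of the 10 members; Anxa3, Anxa6 and Anxa13 had none.

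As a family the members took 1.12% and 1.04% of assigned fragments in the Ck19 libraries and 0.822% and 0.990% in the Sox9 libraries. All 10 passed the count filter, with at least 739 fragments in each organoid library. The log2 fold change of Sox9 over Ck19 organoids was below 0 in 8 members and above 0 in 2, with a median of −0.39 beside 0.01 over all 16653 genes tested. The groups did not overlap in 7 members, of which 6 were lower and 1 higher in the Sox9 libraries. Non-overlap in either direction was found for 51% of all tested genes, 26.3% below and 24.6% above. Since the family was chosen from this contrast, nothing is read from these counts.

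**Figure D1:**
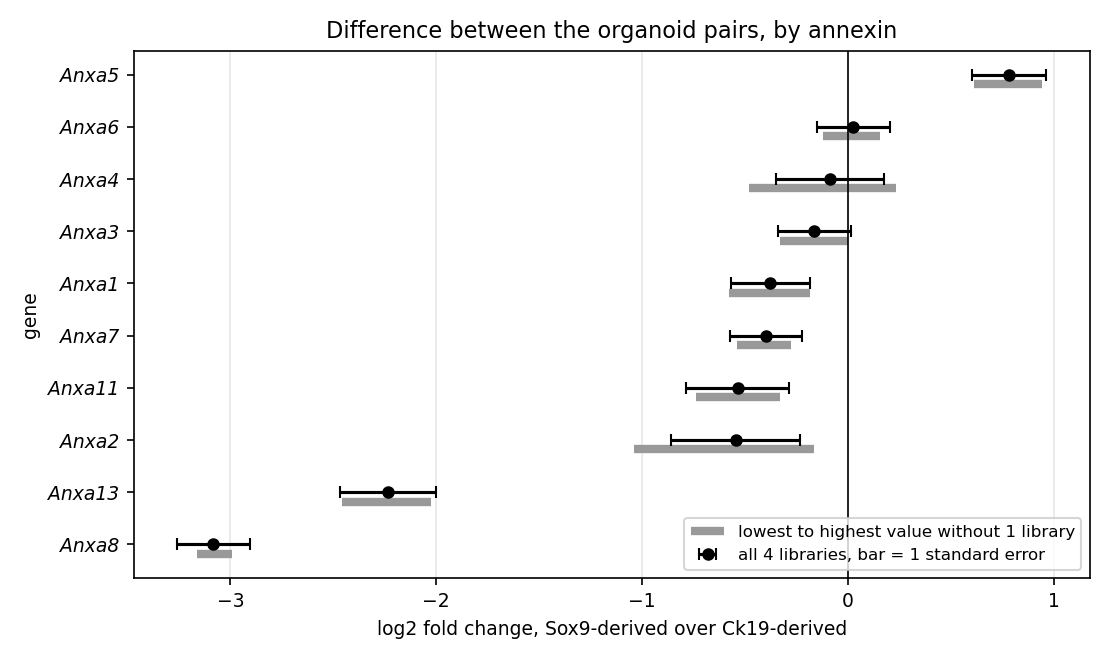
Log2 fold change of each annexin (vertical axis) between the organoid pairs (horizontal axis, Sox9 over Ck19; 0 is no difference). Points are edgeR estimates from all 4 libraries with 1 standard error, and grey bars run from the lowest to the highest estimate when 1 library is left out. Anxa8 (−3.08) and Anxa13 (−2.23) stand apart to the left, Anxa5 (0.78) lies to the right, and the grey bars of Anxa4 and Anxa6 cross 0, as does that of Anxa3 by a hair (−0.33 to 0.00049).

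Anxa8 and Anxa13 are the members whose difference chose the family, and their values are given first. Anxa8, first known as a vascular anticoagulant and abundant in stratified epithelia (ENSMUSG00000021950), stood at 222 and 225 CPM in the Ck19 libraries and at 25.02 and 27.7 CPM in the Sox9 libraries. The replicates of each pair lay close together and the groups were far apart, with means of 224 ± 2.22 and 26.4 ± 1.91 CPM (SD, n = 2). The Ck19 level was 8.47-fold higher (log2 fold change −3.08, SE 0.18), and a larger absolute change was seen in 4.66% of tested genes. It ran from −3.16 to −2.99 when any 1 library was left out.

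Beside Anxa8, 8 markers of stratified squamous epithelium were read. Their sum was 804 and 682 CPM in the Ck19 and 440 and 531 CPM in the Sox9 libraries. Of 6 tested, 2 fell in the Sox9 organoids by edgeR's quasi-likelihood test at an adjusted p under 0.05 (the keratin genes Krt4, adjusted p = 0.0335, and Krt5, adjusted p = 0.0489), 0 rose and 4 were not called; both calls rest on 1 fragment over the Sox9 pair against 6230 and 544. Over all tested genes 0.384% were called lower and 0.186% higher. Sprr1a, a cornified envelope gene, made up most of the sum in every organoid library, with means of 591 and 449.8 CPM. The part of these genes in the Anxa8 difference was not tested. Among the other cell type markers, edgeR called 2 of 8 biliary genes and no others. Both were higher in the Sox9 organoids (Sox9, edgeR adjusted p = 0.0386, and Spp1, edgeR adjusted p = 0.0467).

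Anxa13, a lipid-anchored annexin of polarised epithelium that sorts cargo to the apical membrane (ENSMUSG00000055114, chromosome 15, 58341874 to 58364148, minus strand), stood at 233 and 287 CPM in the Ck19 and at 47.4 and 62.9 CPM in the Sox9 libraries. The higher Sox9 library lay well under the lower Ck19 one. The Ck19 level was 4.70-fold higher (log2 fold change −2.23, SE 0.23), and without any 1 library the change ran from −2.46 to −2.03. The counted gene model spans 915 exon bases. A later annotation of the same build (GENCODE M21) places the gene at 58341471 to 58389244 and holds 433 further exon bases, so fragments there were not counted for Anxa13 and its level is uncertain.

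The pair of annexins best known for partners outside the cell, Anxa1 and Anxa2, were among the 3 most abundant members in both kinds of organoid. Anxa1, which acts on formyl peptide receptors of leukocytes and restrains phospholipase A2, stood at 1902 and 1776 CPM in the Ck19 and 1620 and 1215 CPM in the Sox9 libraries. The groups did not overlap, by a margin smaller than the gap between the Sox9 replicates (log2 fold change −0.38, SE 0.19). Anxa2, which binds S100a10 at the membrane and gathers plasminogen and its activator there, stood at 3936 and 3421 CPM against 1795 and 3233 CPM. The second Sox9 library lay near the Ck19 pair and the first well below it, so the log2 fold change of −0.55 (SE 0.31) became −0.17 without Sox9 replicate 1 and −1.04 without replicate 2.

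Anxa5, which coats exposed phosphatidylserine and is used as a probe of dying cells (ENSMUSG00000027712, chromosome 3, 36448923 to 36475894), was the 1 member with both Sox9 libraries above both Ck19 ones. It stood at 1465 and 1301 CPM in the Sox9 and at 883 and 723 CPM in the Ck19 libraries. The means of 1383 ± 116 and 803 ± 113 CPM (SD, n = 2) differed 1.72-fold (log2 fold change 0.78, SE 0.18; 0.61 to 0.94 without any 1 library).

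The remaining members, which act mainly inside the cell, differed by less than 1.5-fold between the means. Anxa4, a membrane-associated annexin common in secretory and ductal epithelium, stood at 2278 and 2339 CPM in the Ck19 libraries, between the Sox9 values of 1659 and 2680 CPM. Its log2 fold change was −0.09 (SE 0.26) and changed sign with the library left out, from −0.48 to 0.24. Anxa3, an annexin of neutrophil granules and of epithelium, stood at 1176 and 1122 CPM in the Ck19 and 1152 and 900 CPM in the Sox9 libraries, which overlap (log2 fold change −0.16, SE 0.18).

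Anxa6, the member with a duplicated core, which links membrane to actin and cholesterol-rich domains, was level across the organoids at 337, 286, 307 and 328 CPM (log2 fold change 0.03, SE 0.18; −0.12 to 0.16 without any 1 library). Anxa7, or synexin, which joins secretory membranes, was lower in the Sox9 libraries at 127 and 130 CPM, against 183 and 157 CPM (log2 fold change −0.40, SE 0.17). Anxa11, which binds S100a6 and tethers RNA granules to lysosomes, was the scarcest member, at 35.7 and 27.7 CPM against 21.4 and 22.3 CPM (log2 fold change −0.53, SE 0.25). For Anxa7 and Anxa11 the groups did not overlap, by a margin no larger than the gap between the Ck19 replicates, and the differences were small. Strand was not used in counting, and Anxa11 shares 2.73% of its exon bases with its antisense gene Anxa11os.

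Of the annexins not on the list, Anxa9 stood at 3.04 and 5.01 CPM in the Ck19 and 4.59 and 0.754 CPM in the Sox9 libraries, and Anxa10 at 4.42 and 1.92 CPM against 0.437 and 0.845 CPM. Both were thus present only at low levels, and 7.96% of the exon length of Anxa9 is shared with other genes.

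Levels of different annexins were compared per exon length, in FPKM (CPM divided by the exon length in kilobases). In the Ck19 organoids Anxa2 led at 1055 and 917 FPKM, followed by Anxa1 at 729 and 681 FPKM. Below them came Anxa4 (490 and 503 FPKM) and Anxa5 (497 and 407 FPKM), which overlap, and then Anxa3 (323 and 308 FPKM) and Anxa13 (255 and 314 FPKM), which also overlap. Anxa8 (118 and 120 FPKM), Anxa6 (115 and 97.7 FPKM), Anxa7 (61.7 and 52.8 FPKM) and Anxa11 (8.62 and 6.70 FPKM) closed the order, each with both libraries below both of the one before it. Anxa13 is uncertain in this order because of its gene model.

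In the Sox9 organoids the highest mean was that of Anxa5, at 825 and 732 FPKM. Anxa2 (481 and 867 FPKM), Anxa1 (621 and 466 FPKM) and Anxa4 (357 and 577 FPKM) followed. The libraries of Anxa2 overlap those of Anxa5, and those of Anxa2, Anxa1 and Anxa4 overlap one another, while both Anxa5 libraries lay above both of Anxa1 and of Anxa4. Anxa3 (316 and 247 FPKM) and Anxa6 (105 and 112 FPKM) followed without overlap. Anxa13 (51.8 and 68.7 FPKM), Anxa7 (42.8 and 43.96 FPKM), Anxa8 (13.3 and 14.7 FPKM) and Anxa11 (5.19 and 5.39 FPKM) came last. Between the kinds of organoid Anxa8 moved from the seventh to the ninth place, and its share of the summed annexin FPKM was 3.37% and 0.471%. Anxa5 held 12.8% of that sum in the Ck19 and 26.2% in the Sox9 organoids. These places rest on a mean of 2 libraries, and without Sox9 replicate 1 only 6 of the 10 members kept their place in the Sox9 order.

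**Figure D2:**
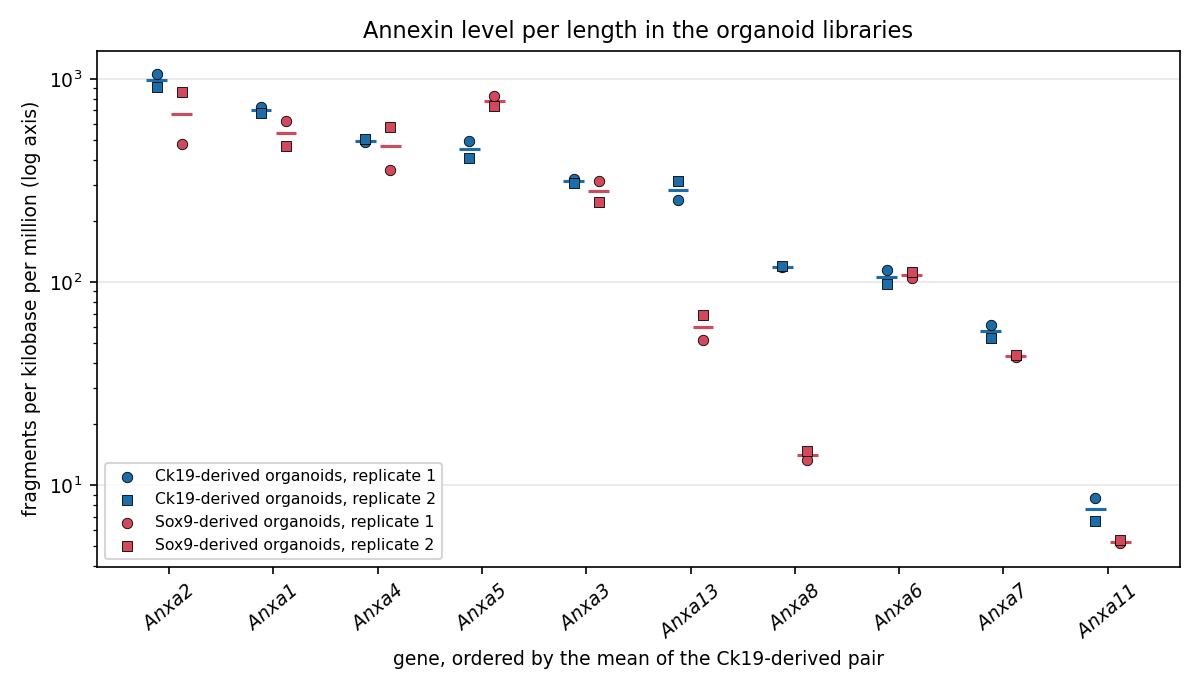
Level of each annexin (horizontal axis, ordered by the Ck19 mean) in FPKM, on a log axis. Points are single libraries and short lines the mean of a pair. The Sox9 points of Anxa8 (13.3 and 14.7) and Anxa13 (51.8 and 68.7) fall far below the Ck19 ones, and the Sox9 replicates of Anxa2 (481 and 867) spread the most among the abundant members.

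The Sox9 replicates disagreed in opposite directions for different annexins. Anxa2 was 1.80 times and Anxa4 1.62 times as high in replicate 2 as in replicate 1, while the ratios of Anxa1 and Anxa3 were 0.750 and 0.782. A typical tested gene differed 1.31-fold between these replicates, and 26.0% of tested genes differed by more than Anxa2 did. In the Ck19 pair the ratios of the members ran from 0.777 for Anxa11 to 1.23 for Anxa13.

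Some S100 proteins are small partners of annexins, and of 12 listed S100 genes 10 were tested. A listed gene counts as a partner gene below, whether or not its protein is known to bind an annexin. By edgeR 1 fell (S100a14), 0 rose and 9 were not called, where 0.57% of all tested genes were called. The median log2 fold change was −0.11, beside 0.01 over all tested genes. S100a14, an S100 gene of epithelium, stood at 257 and 267 CPM in the Ck19 and at 58.9 and 68.01 CPM in the Sox9 libraries. The pairs were far apart, 4.12-fold (edgeR adjusted p = 0.0389 for a log2 fold change of −2.04, SE 0.18). That call was lost without either Ck19 library (adjusted p = 0.418 without replicate 1 and 0.401 without replicate 2), while the fold change stayed at −2.06 and −2.05. A pair of scarce S100 genes, named after their values were seen, had larger changes the other way that were not called. S100b, which is best known from glia, had means of 2.02 and 22.5 CPM (edgeR adjusted p = 0.0712, with 3.48 as its log2 fold change). S100g, a vitamin D-dependent calcium-binding protein, had 1 fragment over the Ck19 and 282 over the Sox9 pair (edgeR adjusted p = 0.0822).

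S100a10, the partner of Anxa2, stood at 794 and 882 CPM in the Ck19 and at 429 and 908 CPM in the Sox9 libraries, and was not called (log2 fold change −0.32, SE 0.38, edgeR adjusted p = 0.728). As with Anxa2, the first Sox9 library was the low one. Per length, S100a10 stood at 0.621 and 0.794 of Anxa2 in the Ck19 pair and at 0.735 and 0.865 in the Sox9 pair, ranges that overlap. S100a6, a partner of Anxa2 and Anxa11, had means of 1615 ± 297 and 777 ± 233 CPM (edgeR adjusted p = 0.166). S100a11, a partner of Anxa1, had means of 762 ± 99.6 and 817 ± 244 CPM (edgeR adjusted p = 0.883). The neutrophil genes S100a8 and S100a9 had 11 and 3 fragments over the 4 libraries.

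**Figure D3:**
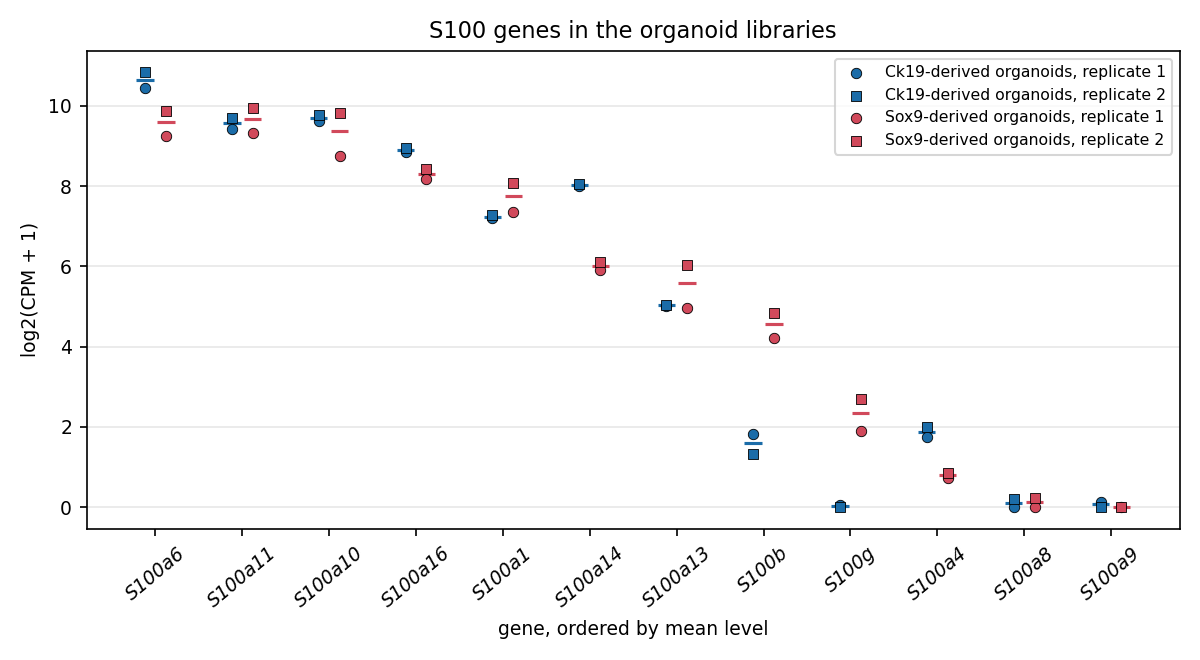
The 12 S100 genes (horizontal axis, ordered by mean level) as log2(CPM + 1) in the 4 organoid libraries; points are libraries and lines the mean of a pair. S100a14 is the called gene, with 257 and 267 CPM in blue above 58.9 and 68.01 CPM in red, S100b and S100g lie higher in red and were not called, and the Sox9 points of S100a10 (429 and 908 CPM) spread on either side of the Ck19 pair.

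Receptors for secreted Anxa1 were nearly absent from the organoids. None of 7 formyl peptide receptor genes passed the count filter. Fpr1 had 3 fragments over the Sox9 pair and 0 over the Ck19 pair, Fpr2 had 0 in all 4 libraries, and Fpr3 and Fpr-rs6 had 1 and 2 fragments in all. A count of 0 allows up to 0.0941 CPM in the shallowest library (3 fragments, counting error only).

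Of the plasminogen system, which works on the surface that Anxa2 and S100a10 provide, 7 of 9 genes were tested. By edgeR 1 fell, 0 rose and 6 were not called, where 0.57% of all tested genes were called. Serpinb2, an inhibitor of plasminogen activators, had 864 fragments over the Ck19 pair and 0 over the Sox9 pair, at least 311-fold lower against a floor of 3 fragments over the pair (edgeR adjusted p = 0.0406, and adjusted p = 0.467 and 0.447 without Ck19 replicate 1 and 2). Its exon bases overlap those of Serpinb10 by 12.4%. The urokinase receptor gene Plaur stood at 331 ± 24.2 and 295 ± 67.8 CPM, the tissue activator Plat at 104 and 112 CPM, and Serpine2, an inhibitor of serine proteases, at 172 and 236 CPM (edgeR adjusted p from 0.761 to 0.952 for these 3). Serpine2 differed sharply between the Sox9 libraries, at 450.3 and 21.02 CPM.

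In the other partner lists edgeR called no gene in either direction. These were membrane repair and scaffold partners (12 of 14 tested), phosphatidylserine exposure and transport (10 of 10), other calcium-dependent phospholipid-binding proteins (9 of 11) and phospholipase A2 (2 of 6). Over these 4 lists 10 of 33 tested genes had an unadjusted p under 0.05, beside 16.8% of all tested genes. Pdcd6, the calcium sensor that binds Anxa7 and Anxa11, stood at 371 and 355 CPM, and Sri, or sorcin, a partner of Anxa7, at 474 and 422 CPM. Nedd4, a ubiquitin ligase that binds Anxa13, had means of 383 and 543 CPM (edgeR adjusted p = 0.28). Plscr1 and Plscr3, of the gene family named phospholipid scramblase, had means of 260 and 343 CPM and of 162 and 173 CPM. Tmem30a, a flippase subunit, had 144 and 125 CPM. Cpne8, a copine, had means of 33.7 and 78.1 CPM (edgeR adjusted p = 0.0894), and the membrane tethers Esyt1 and Esyt2 had 35.8 and 54.8 CPM and 39.9 and 26.2 CPM. Pla2g4a, the cytosolic phospholipase A2, had 41.4 and 101 CPM (edgeR adjusted p = 0.19), Pla2g6 38.5 and 19.6 CPM, and Pla2g4c 0.702 and 0.0754 CPM. Taking all 7 partner lists, 2 of 50 tested genes fell, 0 rose and 48 were not called by edgeR. Of all tested genes 0.57% were called. With DESeq2 15 partner genes were called, where 9.26% of all genes were.

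The genes most like Anxa8 and Anxa13 in profile were sought among 8883 named genes that averaged 10 CPM or more, by the root mean square difference of centred log2 CPM over the 4 organoid libraries. Nearest to Anxa8 were Rtp4 (0.14), Oas1g (0.17), Pm20d1 (0.18), Cd55 (0.20) and Xaf1 (0.22). Rtp4 stood at 271 and 263 CPM in the Ck19 and 35.5 and 40.6 CPM in the Sox9 libraries, and Cd55, which restrains complement on the cell surface, at 74.02 and 78.97 CPM against 10.6 and 12.97 CPM. Nearest to Anxa13 were Styk1 (0.05), Acp1 (0.11), Ces2g (0.11), Slc25a35 (0.11) and S100a14 (0.15). Ces2g, a carboxylesterase, stood at 243 and 315 CPM against 49.9 and 79.4 CPM. Over 4 libraries in 2 pairs this measure mostly matches the size of the difference between the pairs.

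With the TKO-tagged Sox9 columns, whose hepatocyte marker sums are given above, most annexins stood lower than in the organoids. These libraries held 53280136 and 59664959 fragments, of which the members took 0.234% and 0.188%. In CPM on library totals, both tagged libraries lay below all 4 organoid libraries in 8 members. In 2 (Anxa5 and Anxa7) they overlapped them, and in 0 they lay above. Of the 16653 genes tested in the organoids, 53.9% lay below and 9.15% above by the same rule. These genes passed the count filter in the organoid libraries, so genes seen only in the tagged pair are not among them. The shares thus lean towards below by the choice of genes. With edgeR's own scaling of library totals (TMM), Anxa6 had a log2 fold change of 0.055 (SE 0.24), tagged over Ck19 pair. On that scale Anxa5 (0.91) and Anxa7 (0.60) were above 0 and the remaining members below 0. The place of Anxa6 thus depends on the scale. So does the direction of Anxa7, whose mean CPM was 151 in the tagged and 170 in the Ck19 pair. The part of the difference in cell type markers was not tested.

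Anxa8 had 0 fragments in the first tagged library, which allows up to 0.0563 CPM, and 39 fragments or 0.654 CPM in the second. Anxa13 had 27 fragments or 0.507 CPM in the first and 0 in the second, which allows up to 0.0503 CPM. Each of these genes was thus seen in 1 of the 2 libraries. Anxa3 stood at 20.9 and 12.7 CPM, Anxa1 at 116 and 74.0 CPM, Anxa4 at 304 and 193 CPM, Anxa2 at 746 and 263 CPM and Anxa11 at 4.24 and 5.20 CPM. All of these are below each organoid library. Anxa5 stood at 766 and 1033 CPM, Anxa7 at 193 and 110 CPM and Anxa6 at 192 in both. Per length Anxa5 led the tagged pair at 431 and 581 FPKM and made up 59.3% of the summed annexin FPKM, with Anxa2 next at 199.99 and 70.4 FPKM. S100a10 stood at 1.45 and 2.71 of Anxa2 per length there, above the organoid values, and S100a14 had 0 fragments in both libraries.

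**Figure D4:**
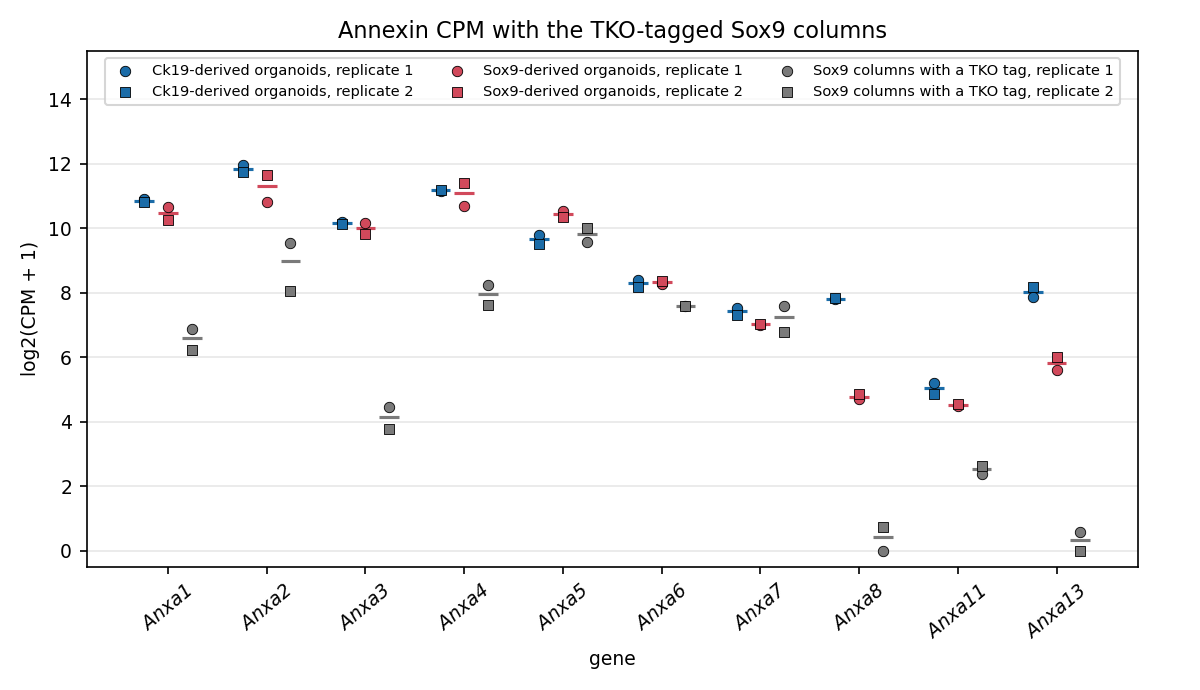
The 10 annexins (horizontal axis) as log2(CPM + 1) in the organoid pairs and in the Sox9 columns with a TKO tag (grey); points are libraries and lines the mean of a pair. Grey points lie near the organoid points for Anxa5 (766 and 1033 CPM), Anxa6 and Anxa7, and near 0 for Anxa8 and Anxa13.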

How the data were processed

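Bulk RNA was sequenced in 10 samples, of which 4 organoid samples entered the comparison. The authors deposited raw counts of fragments per gene, not normalized and not pooled, made with featureCounts v1.5.0-p3 on Ensembl 87 gene models of GRCm38, per the file headers. Fragments needed both ends mapped and a mapping quality of at least 10, and strand was not used, per the file headers. STAR 2.5.4b is named in the submitters' processing notes. Reads that fit several places have low mapping quality and were dropped (33.2% to 40.0% of fragments in the organoid libraries), and 0 fragments were flagged as duplicates, so PCR copies remain and intervals or floors cover counting error only. A further 4 count columns matched no label by name and were not used, and 6 samples in 3 groups were not analysed here.

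CPM used library totals over all 49585 genes, and FPKM divided CPM by the exon length in the tables. Symbols were matched for 49326 gene IDs. Differences were fitted on all genes with the quasi-likelihood test of edgeR 4.0.16 in R 4.3.3 (filterByExpr with a minimum count of 10, TMM scaling, no block, two-sided, Benjamini-Hochberg threshold 0.05 over 16653 genes), with 2 residual degrees of freedom and a common biological coefficient of variation of 0.434. Replicate pairs differed by far more than sampling noise (chi-square per gene 62.8 and 118). Each library was counted, though this excess does not show that replicates are separate animals or cultures. The test was checked on simulated data. Alternatives were relative log expression factors, DESeq2 1.42.0, limma-voom (limma 3.58.1), no count filter, a replicate block, 1 library left out and the tagged columns. Named were all members, Anxa9 and Anxa10, from each of the 7 partner lists every called gene and the next 3 by level, the 5 genes nearest in profile to Anxa8 and to Anxa13, and Epcam, Krt19, Sox9 and Alb; further marker genes were named after their values were seen. The members and lists were chosen with earlier results of these data known. Epcam stood at 2212 and 3251 CPM, Krt19 at 2199 and 3054 CPM, Sox9 at 87.7 and 565 CPM and Alb at 14.7 and 5.32 CPM in the Ck19-derived and Sox9-derived organoids.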

Additional observations from a re-analysis of the deposited data

How the results depend on the processing

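The number of genes called depended on the setting: 95 as reported, 97 with relative log expression factors, 93 with limma-voom, 1512 with DESeq2, 506 without a count filter, 5190 with the tagged columns and 0 to 1394 with 1 library left out. Genes tested numbered 16653 as reported, 33328 without a count filter and 17938 with the tagged columns, and DESeq2 called 9.26% of 16330 genes. Counts of members and partner genes below thus stand beside very different counts over all genes, the highest being that with the tagged columns. The replicate block called 0 genes and 0 partner genes by edgeR, with 2665 genes at an unadjusted p under 0.05 (2792 without the block). The labels do not say that the numbers pair the samples, and deviations of same-numbered libraries correlated at 0.058. Among the members, on whose difference the family was chosen so that nothing is read from the count, edgeR called 2, with 0 to 3 without 1 library and 6 with the tagged columns; of the partner genes 2, against 15 with DESeq2, 8 without a filter, 0 to 16 without 1 library and 27 with the tagged columns. Of the fits without 1 library, those without Ck19 replicate 1 or 2 gave the lowest number of genes called. By CPM, without length, 3 of 10 members kept their place in the Ck19 and 5 in the Sox9 order, and without 1 library 8 in the Ck19 and 6 to 8 in the Sox9 order.

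Only named genes were read for a change of sign, here and with the tagged columns. In fits without 1 library the log2 change turned sign for Anxa3 (−0.33 to 0.00049), Anxa4 (−0.48 to 0.24), Anxa6 (−0.12 to 0.16) and Anxa9 (−2.39 to 0.19). It also turned for 9 of the named partner genes that were not called. The range of these was −0.97 to 0.14 for S100a10, −0.24 to 0.40 for S100a11, −0.15 to 0.031 for Pdcd6, −0.44 to 0.074 for Sri, −0.85 to 0.71 for Plat, −0.40 to 0.049 for Plaur, −3.01 to 1.39 for Serpine2, −0.064 to 0.26 for Plscr3 and −0.49 to 0.12 for Tmem30a. Serpine2 lay at −0.78 with limma-voom and −0.80 with the replicate block. With the tagged columns the sign turned for Anxa7 (0.60, against −0.40), S100a11 (−2.99), Nedd4 (−0.79), Plat (−2.98), Serpine2 (−3.03), Pla2g4a (−3.49), Pla2g6 (0.32), Plscr3 (−2.31), Cpne8 (−0.025), Epcam (−7.48), Krt19 (−10.20), Alb (10.97) and Pm20d1 (1.72). The cause was not tested. These values use TMM scaling, and by mean CPM Anxa7 was lower in the tagged than in the Ck19 pair (151 against 170). With 1 library left in a group its spread is assumed to be like that of the other pair.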
